A study of Homo sapiens with 6 samples.

Results

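The insulin-like growth factor (IGF) axis was described through 10 genes, among 60675 genes counted, in PLC/PRF5 cells with and without knockdown of MTR4. They were the binding-protein genes IGFBP1 to IGFBP7, the ligand gene IGF2, and the receptor genes IGF1R and INSR. The set was picked because IGFBP3 was lower after MTR4 knockdown, and IGFBP2 was singled out for its level in control replicate 2. The difference between MTR4 KD and control is therefore given for these 10 genes as values and not as a test.

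IGFs are secreted growth factors that bind IGF1R, a tyrosine kinase receptor, and, in the case of IGF2, also a form of the insulin receptor INSR. Most IGF outside cells is held by IGF-binding proteins, which carry it, keep it from its receptors or, after cleavage by proteases, release it. The liver is the main source of circulating IGF1 and of several binding proteins, and IGF2 is a fetal growth factor that hepatocellular carcinomas (HCC) often express again.

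The cells were PLC/PRF5, an established line from a human HCC, grown in DMEM with fetal bovine serum, in 3 control libraries and 3 libraries with MTR4 knockdown (MTR4 KD). MTR4 is an RNA helicase that feeds nuclear RNA to the exosome. By the paper's description the cells carried an shRNA induced by Doxy and were compared before and after Doxy. The labels name neither Doxy nor the shRNA, and no Doxy-treated library with a scramble shRNA was analysed here, so knockdown and Doxy cannot be told apart. The labels do not say whether the 3 libraries of a group came from separate cultures, so p-values measure the spread between these libraries, which may be technical.

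The depth on genes was 60686786 to 72708682 reads per library. Levels are given as CPM, the reads of a gene scaled to a common library size with edgeR's TMM factors. MTR4 (listed as MTREX) had 78.0 ± 8.24 CPM in control and 45.8 ± 2.60 CPM in MTR4 KD (SD, n = 3), with an adjusted p of 0.00641 by edgeR's quasi-likelihood test with Benjamini-Hochberg adjustment. Libraries differed in the share of reads with a non-unique alignment, which was 34.7% to 37.5% in MTR4 KD replicate 3 and in the first and the third control replicate, and 14.8% to 18.2% in the other 3 libraries. The former are called below the libraries with more non-unique reads, the latter those with fewer, and each kind held both conditions. All 15 hepatocyte markers were over 1 CPM in every library, with a summed level of 38626 to 41651 CPM. The 10 fibroblast or stellate markers summed to 6.69 to 15.0 CPM, the 6 endothelial markers to 0.0994 to 1.70 CPM, the 7 immune markers to 25.6 to 34.3 CPM and the 5 biliary markers to 50.6 to 76.3 CPM. Most of the immune sum was LYZ, with 24.4 to 31.6 CPM. Most of the biliary sum was EPCAM, with 38.4 to 51.0 CPM, and SOX9, with 10.3 to 22.7 CPM.

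The IGFBP3 and IGFBP4 promoters are shown because both genes had similar levels per length in control cells, while only IGFBP3 had every MTR4 KD library below every control library. RefSeq windows on GRCh38.p14, from 250 bases before to 50 bases after the start, were at hand for 7 of the 10 genes. IGFBP1, IGFBP7 and IGF2 had none. The IGFBP3 window lies at chr7:45921223-45921522 on the minus strand and the IGFBP4 window at chr17:40443200-40443499 on the plus strand. Capitals mark the GC box letters GGGCGG and the TATA box letters TATAAA, searched on both strands, each written 5′ to 3′ along the gene's own strand.
IGFBP3: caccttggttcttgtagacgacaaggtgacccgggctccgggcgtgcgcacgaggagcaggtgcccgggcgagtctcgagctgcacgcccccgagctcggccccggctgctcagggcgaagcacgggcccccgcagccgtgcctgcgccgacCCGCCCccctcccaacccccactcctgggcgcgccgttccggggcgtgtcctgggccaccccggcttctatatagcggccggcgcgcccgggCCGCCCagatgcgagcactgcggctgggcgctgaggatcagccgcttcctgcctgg
IGFBP4: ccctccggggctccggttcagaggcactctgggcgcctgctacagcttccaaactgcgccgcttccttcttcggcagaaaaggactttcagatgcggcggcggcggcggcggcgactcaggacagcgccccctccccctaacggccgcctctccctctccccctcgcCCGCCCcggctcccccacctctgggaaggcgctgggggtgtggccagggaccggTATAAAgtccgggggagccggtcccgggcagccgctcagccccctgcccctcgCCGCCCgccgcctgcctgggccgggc
Each window held 2 GC box matches, and 45.0% of all 35116 windows held at least 1. The IGFBP4 window also held 1 match to TATAAA, which 11.5% of all windows held, and the IGFBP3 window held no match to these exact letters. Variants of them were not searched for, and the IGFBP3 window held the letters TATATA, which are not marked. Bases G and C made up 74.7% of the IGFBP3 window and 74.0% of the IGFBP4 window, with a median of 58.7% over all windows. A match is a description of the letters and not evidence of binding.

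Levels between genes were compared as CPM per kilobase of exon. IGFBP1 was by far the highest, with a mean of 326.5 CPM per kb in control. By its mean over all 6 libraries, it stood at percentile 99.3 of the 17768 genes past the filter on low counts that had a known length. In control, INSR followed at 10.0 CPM per kb, then IGFBP3 at 7.43, IGFBP4 at 5.51, IGF1R at 4.75 and IGFBP7 at 1.85 CPM per kb. The control means of IGFBP2, IGFBP6, IGFBP5 and IGF2 were under 0.5 CPM per kb, and that of IGF2 was 0.0487 CPM per kb. In MTR4 KD the order changed at IGFBP3, which had 2.93 CPM per kb and came after IGFBP4 at 5.02 and IGF1R at 4.06 CPM per kb. It also changed among IGFBP2, IGFBP6, IGFBP5 and IGF2, all still under 0.5 CPM per kb. The order of IGFBP3 and IGFBP4 by their mean over all 6 libraries turned when the longest transcript was used as length.

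**Figure D1:**
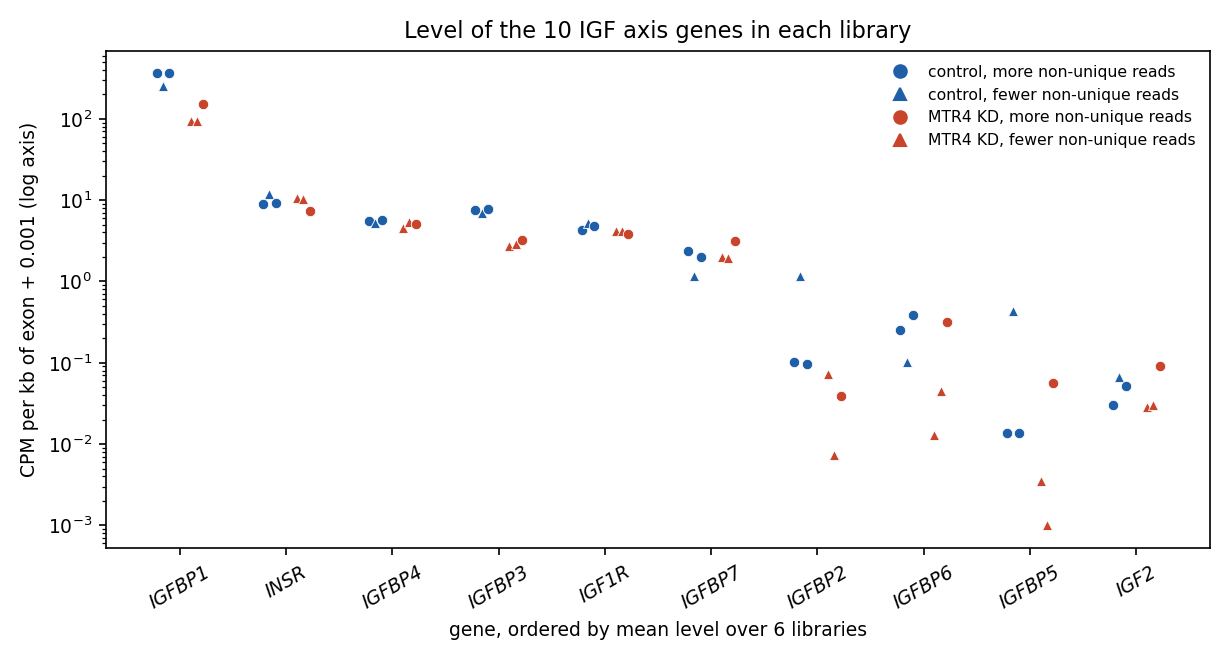
Level of each of the 10 genes in each of the 6 libraries, as CPM per kb of exon + 0.001 on a log axis, with genes ordered by their mean over all libraries. Blue is control, red is MTR4 KD, circles are libraries with more non-unique reads and triangles those with fewer. IGFBP1 lies far above the other genes, and IGFBP2 and IGFBP5 each have a single control triangle far above their other libraries.

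Most binding-protein RNA came from a single gene. Summed over the 7 binding proteins, the level was 342.2 ± 61.9 CPM per kb in control and 123.7 ± 34.9 CPM per kb in MTR4 KD (SD, n = 3). IGFBP1 made up 95.3% ± 0.771 of this sum in control and 91.3% ± 1.37 in MTR4 KD. IGFBP3 made up 2.21% ± 0.317 and 2.45% ± 0.434. In these cultures a lower level can come from fewer cells with the RNA or from less RNA per cell, which cannot be told apart.

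IGFBP1 (ENSG00000146678, chr7:45888488-45893660 on GRCh38, plus strand) encodes a binding protein made by liver and repressed by insulin. Its level was 594.8, 419.8 and 594.0 CPM in control replicates 1 to 3 and 155.7, 152.3 and 249.8 CPM in MTR4 KD replicates 1 to 3. Every MTR4 KD library lay below every control library, and within each group the libraries with more non-unique reads were the higher ones. The mean was 536.2 ± 101 CPM in control and 185.9 ± 55.3 CPM in MTR4 KD (SD, n = 3), a log2 difference of -1.53 (SE 0.225). Within the libraries with more non-unique reads the log2 difference was -1.25, and within those with fewer it was -1.45.

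IGFBP3 (ENSG00000146674, chr7:45912245-45921272 on GRCh38, minus strand) encodes the main IGF carrier in blood, and its gene lies 18.6 kb from IGFBP1. It had 34.4, 31.8 and 35.6 CPM in the control replicates and 12.5, 13.02 and 14.6 CPM in the MTR4 KD replicates. The groups were far apart, and the libraries within each group were close to one another. The means were 33.9 ± 1.95 and 13.4 ± 1.12 CPM (SD, n = 3), and the log2 difference was -1.34 (SE 0.0899). It was -1.25 within the libraries with more non-unique reads and -1.31 within those with fewer. IGFBP3 rested on 765 to 2305 reads per library.

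IGFBP4 (ENSG00000141753, chr17:40443450-40457725 on GRCh38) encodes a binding protein that mainly inhibits IGF action until the protease PAPPA cleaves it. It had 12.3, 11.4 and 12.7 CPM in control and 10.0, 11.9 and 11.3 CPM in MTR4 KD. These ranges overlapped, since MTR4 KD replicate 2 lay above control replicate 2. The log2 difference was -0.13 (SE 0.0942), compared with -1.34 for IGFBP3.

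IGFBP7 (ENSG00000163453, chr4:57030773-57110385 on GRCh38) encodes a relative of the family that binds IGFs weakly. It was the only measured gene of the set with a higher mean in MTR4 KD, with 4.54, 2.26 and 3.89 CPM in control and 3.89, 3.70 and 5.98 CPM in MTR4 KD. The ranges overlapped, control replicate 2 was the lowest library and MTR4 KD replicate 3 the highest. The log2 difference was 0.35 (SE 0.291) over all libraries, 0.50 within the libraries with more non-unique reads and 0.72 within those with fewer. Without control replicate 2 it was 0.096, and without MTR4 KD replicate 3 it was 0.092. Exons of genes on the other strand, POLR2B and IGFBP7-AS1, cover 18.3% of IGFBP7's exon bases, and the strand setting of the counting is not given in the sources used here, so these reads cannot be told apart.

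IGFBP6 (ENSG00000167779, chr12:53097667-53102340 on GRCh38) encodes a binding protein that prefers IGF2. It had 21, 10 and 31 reads in the control replicates and 1, 4 and 26 reads in the MTR4 KD replicates, or 0.340, 0.138, 0.514, 0.0163, 0.0599 and 0.424 CPM. The groups overlapped, and MTR4 KD replicate 3 lay inside the control range. The log2 difference was -0.98 (SE 0.951), 0.011 within the libraries with more non-unique reads and -0.80 within those with fewer. At such low levels the added 0.1 CPM makes the values within a kind of library smaller in size. With 1 library left out the fitted difference ran from -0.45 without MTR4 KD replicate 1 to -3.02 without MTR4 KD replicate 3.

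IGFBP2 (ENSG00000115457, chr2:216632828-216664436 on GRCh38, plus strand) encodes a binding protein abundant in fetal life. It had 30, 401 and 27 reads in control replicates 1 to 3 and 21, 2 and 11 reads in MTR4 KD replicates 1 to 3. In CPM this was 0.486, 5.54 and 0.447 in control and 0.342, 0.0299 and 0.179 in MTR4 KD. Control replicate 2 was 11.4 times the next library, and the other control libraries lay just above MTR4 KD replicate 1. The log2 difference was -3.57 (SE 1.20) with all libraries and -1.36 (SE 0.733) without control replicate 2. It was -1.02 within the libraries with more non-unique reads and -4.56 within those with fewer, which include control replicate 2.

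IGFBP5 (ENSG00000115461, chr2:216672105-216695549 on GRCh38, minus strand) lies 7.67 kb from IGFBP2 and encodes a binding protein found in extracellular matrix. It had 5, 205 and 5 reads in control and 1, 0 and 22 reads in MTR4 KD, and did not pass the filter on low counts. Its CPM was 0.0810, 2.83 and 0.0829 in control and 0.0163, 0 and 0.359 in MTR4 KD. The count of 0 in MTR4 KD replicate 2 allows a level of up to 0.0450 CPM, counting error only. Control replicate 2 was again the highest library, at 7.89 times the next one, and the other libraries overlapped. DIRC3-AS1 on the other strand covers 7.53% of the exon bases.

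**Figure D2:**
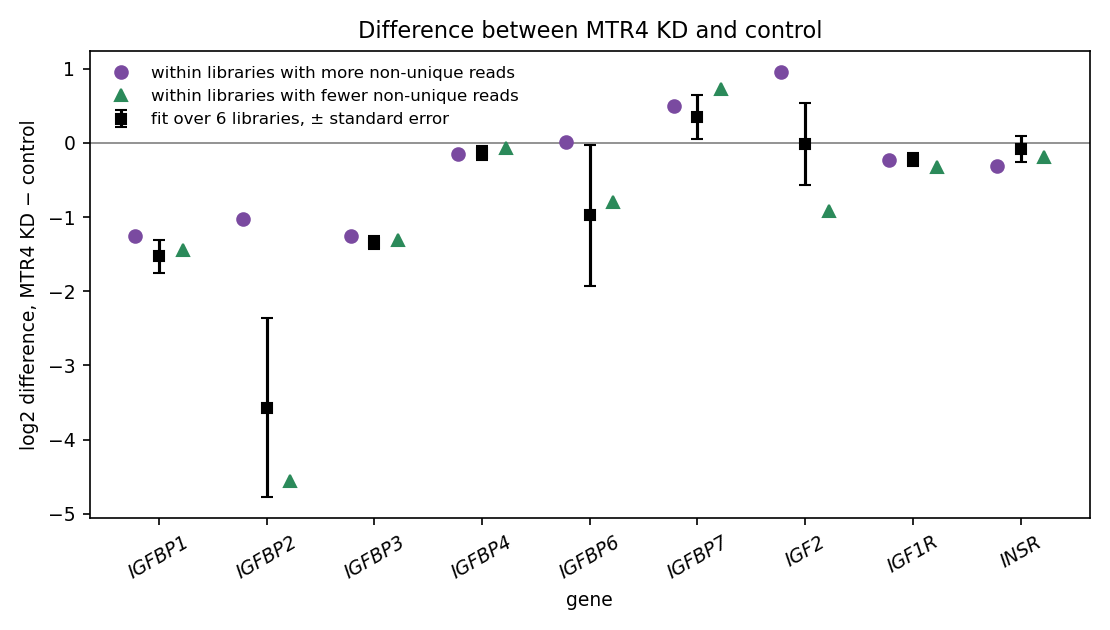
Log2 difference between MTR4 KD and control for the 9 genes that passed the filter on low counts. Black squares are the fit over 6 libraries with its standard error, and purple circles and green triangles are differences of mean log2(CPM + 0.1) within each kind of library, more and fewer non-unique reads. The 3 readings run from -1.53 to -1.25 for IGFBP1 and from -1.34 to -1.25 for IGFBP3, while those of IGFBP2 and IGF2 lie far apart.

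The ligand genes were barely detected. IGF2 (ENSG00000167244, chr11:2129117-2149566 on GRCh38) had 13, 34 and 22 reads in control and 12, 14 and 39 reads in MTR4 KD, or 0.211, 0.469, 0.365, 0.195, 0.209 and 0.636 CPM. The groups overlapped, and MTR4 KD replicate 3 lay above every control library, with means of 0.348 ± 0.130 and 0.347 ± 0.2502 CPM (SD, n = 3). The log2 difference was -0.016 (SE 0.552) and turned to between 0.018 and 0.27 when control replicate 2, control replicate 3, MTR4 KD replicate 1 or MTR4 KD replicate 2 was left out. Without control replicate 1 it was -0.27, and without MTR4 KD replicate 3 it was -0.78. It was 0.95 within the libraries with more non-unique reads and -0.91 within those with fewer. Other counted genes share 26.9% of IGF2's exon bases, INS-IGF2 among them on the same strand, so part of its reads may be missing from the count. IGF1, the liver's endocrine IGF, had 0 reads in each control library and 0, 5 and 1 reads in the MTR4 KD libraries, and INS and INS-IGF2 had 0 reads in all 6 libraries. A count of 0 allows a level of up to 0.0413 to 0.0494 CPM, depending on the library, counting error only. For INS-IGF2 this limit does not cover reads on the exon bases it shares with IGF2, which may be missing from its count. Overlaps of INS with other genes were not looked up.

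Both receptor genes were expressed in every library. IGF1R (ENSG00000140443, chr15:98648539-98964530 on GRCh38) had 59.1, 72.99 and 66.4 CPM in control and 57.5, 58.7 and 53.4 CPM in MTR4 KD. Every MTR4 KD library lay below every control library, but MTR4 KD replicate 2 and control replicate 1 almost met. The means were 66.2 ± 6.94 and 56.5 ± 2.76 CPM (SD, n = 3), and the log2 difference was -0.23 (SE 0.0882). It was -0.23 within the libraries with more non-unique reads and -0.33 within those with fewer.

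INSR (ENSG00000171105, chr19:7112265-7294414 on GRCh38) had 96.4, 130.3 and 98.6 CPM in control and 114.0, 113.4 and 78.5 CPM in MTR4 KD. The groups overlapped, and within each group the libraries with fewer non-unique reads were the higher ones. The log2 difference was -0.089 (SE 0.174) over all libraries, -0.31 within the libraries with more non-unique reads and -0.20 within those with fewer. It turned to 0.070 without MTR4 KD replicate 3 and to 0.059 without control replicate 2. Per length, INSR RNA was 2.103 ± 0.193 times that of IGF1R in control and 2.31 ± 0.363 times in MTR4 KD (SD, n = 3).

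In all, 4 of the 10 genes had every MTR4 KD library below every control library, namely IGFBP1, IGFBP2, IGFBP3 and IGF1R, and 0 had every MTR4 KD library above. Among 18075 tested genes, 12.6% had the first order and 12.1% the second. The median log2 difference of the 9 genes past the filter was -0.23, and that of all tested genes was 0.0062. Nothing follows from this contrast about the set, since it chose the genes.

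The share of non-unique reads was not used to choose the set, so the difference between both kinds of library was tested, with condition in the same fit. IGFBP2 was left out because its level in 1 library had been used, and IGFBP5 because it was under the filter. By edgeR's quasi-likelihood test with Benjamini-Hochberg adjustment, 5 of 8 genes differed at an adjusted p under 0.05, and of all tested genes 31.5% did (16.2% higher and 15.3% lower in the libraries with more non-unique reads). The 5 include IGFBP6, which passed the filter only through the libraries where it was higher, so its call is not a test. IGFBP1 was higher in the libraries with more non-unique reads, by 0.60 on the log2 scale (SE 0.0477, adjusted p = 9.95e-07). IGFBP7 was higher by 0.77 (SE 0.126, adjusted p = 4.39e-04), and all 3 libraries with more non-unique reads lay above all 3 with fewer, an order without overlap that 35.3% of all tested genes showed in one direction or the other. Without condition in the fit, the adjusted p was 0.192 for IGFBP1 and 0.165 for IGFBP7.

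IGFBP6 was also higher in the libraries with more non-unique reads, by 2.39 (SE 0.560), and its 3 libraries of that kind lay above the other 3. It passed the filter on low counts only through those 3 libraries, which had 21, 31 and 26 reads. Control replicate 2 had 10 reads but was the deepest library, and fell short after scaling. The IGFBP6 difference is therefore given as a value and not as a test, and the order of its libraries follows from the filter. Without MTR4 KD replicate 3 this difference was 1.63. The receptor genes went the other way. INSR had all 3 libraries with more non-unique reads below all 3 with fewer, a log2 difference of -0.47 (SE 0.0427, adjusted p = 2.95e-06 by edgeR's quasi-likelihood test). IGF1R differed by -0.17 (SE 0.0533, adjusted p = 0.0266), and its adjusted p was over 0.05 without control replicate 1 (0.0923), control replicate 2 (0.294), MTR4 KD replicate 1 (0.0610) or MTR4 KD replicate 2 (0.0727), and without condition in the fit (0.676).

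IGFBP3 differed by 0.17 between the kinds of library (SE 0.0597, adjusted p = 0.0508 by edgeR's quasi-likelihood test), IGFBP4 by 0.086 (SE 0.0840, adjusted p = 0.493) and IGF2 by 0.45 (SE 0.495, adjusted p = 0.541). For IGFBP3 this lay at the threshold, with adjusted p of 0.0325 to 0.433 over the alternatives. Its log2 difference between conditions, by comparison, was -1.34.

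**Figure D3:**
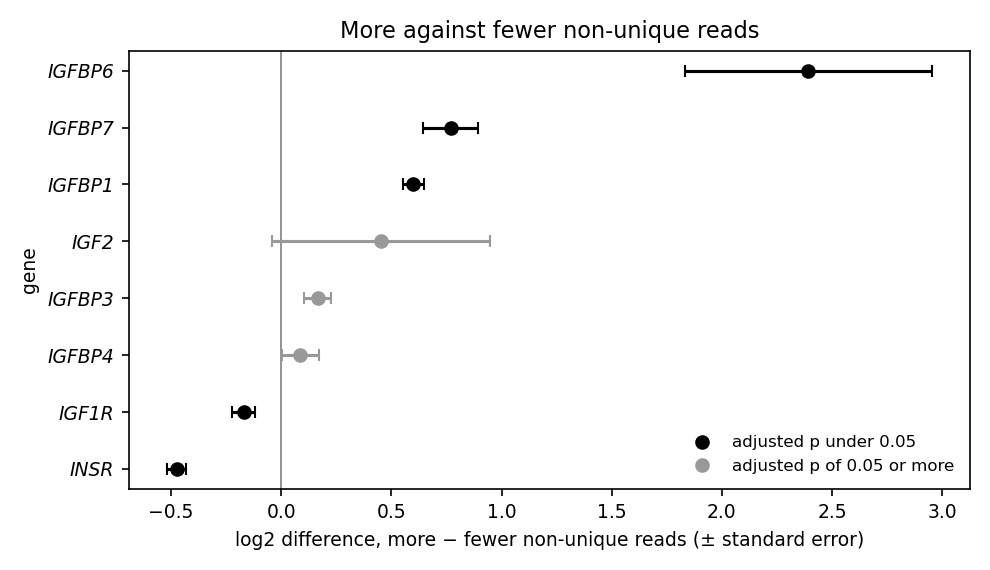
Log2 difference between the 3 libraries with more non-unique reads and the 3 with fewer, from a fit that also holds condition, with standard errors as bars. Black points have an adjusted p under 0.05 and grey points 0.05 or more. The black point of IGFBP6 is not a test, since this gene passed the filter only through the libraries where it was higher. IGFBP6, IGFBP7 and IGFBP1 lie to the right of 0, and IGF1R and INSR to its left.

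IGFBP2 was 1 of 31 tested genes (0.172%) whose level in control replicate 2 was over 5 times that in each other library, after adding 0.1 CPM. In the other libraries, this held for 0 genes in control replicates 1 and 3 and in MTR4 KD replicate 2, for 2 genes (0.0111%) in MTR4 KD replicate 1 and for 3 (0.0166%) in MTR4 KD replicate 3. Ordered by the fold over the next library, IGFBP2 was number 9, at 9.61-fold. With a mean of at least 100 reads, the genes of this kind were NAV1, COL2A1, SPARC, ZIC1, MAP1B, KIF1A, DPYSL2 and TUBA1A.

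NAV1, a gene of developing neurons, was 26.6-fold over the next library, at 11.2 CPM in control replicate 2 and 0.135 to 0.326 CPM elsewhere. COL2A1, the collagen of cartilage, was 24.4-fold over and SPARC, a matrix glycoprotein, 19.3-fold. ZIC1 and MAP1B, a transcription factor and a microtubule protein of neural cells, were 16.5-fold and 16.0-fold over. Control replicate 2 also had the highest summed level of the fibroblast or stellate markers, 15.0 CPM against 6.69 to 11.9 CPM, and of the endothelial markers, 1.70 CPM against 0.0994 to 0.603 CPM. Each sum turned on 1 gene, COL1A2 with 4.67 CPM in control replicate 2 and TEK with 1.30 CPM. Without COL1A2 the fibroblast or stellate sum was 10.3 CPM in control replicate 2 and 10.9 CPM in MTR4 KD replicate 3, and without TEK the endothelial sum was 0.4003 and 0.603 CPM, so that MTR4 KD replicate 3 was then the highest in both. The fibroblast markers COL3A1 and PDGFRA were also highest in control replicate 2, with 2.17 and 0.110 CPM. COL1A1, LUM, PDGFRB, ACTA2, THY1, DCN and POSTN were each highest in another library. DCN and POSTN were at 0 reads in control replicate 2. DCN was also at 0 reads in MTR4 KD replicates 1 and 2, and POSTN in control replicate 3 and MTR4 KD replicate 2. The part of these in the IGFBP2 and IGFBP5 levels was not tested.

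**Figure D4:**
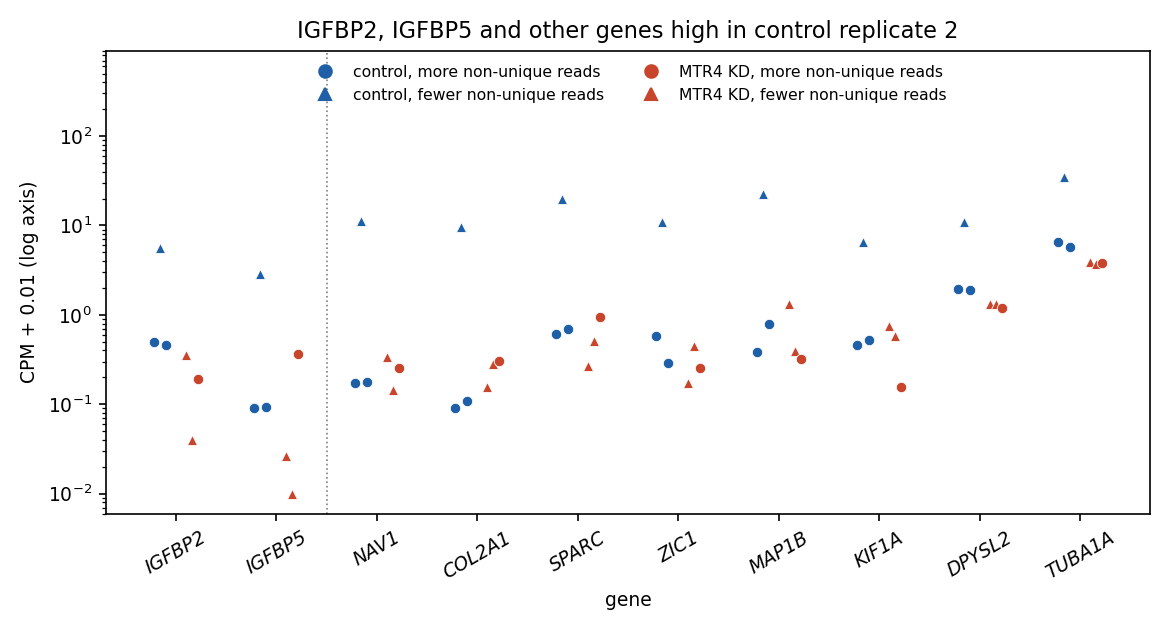
CPM + 0.01 on a log axis in each library for IGFBP2 and IGFBP5 (left of the dotted line) and for the 8 genes with a mean of at least 100 reads whose level in control replicate 2 was over 5 times that of each other one. In every gene shown the blue triangle, control replicate 2, is the highest point.

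The genes most like IGFBP3 over the 6 libraries, by Pearson's r of log2(CPM + 0.1) among 12860 genes with a mean of at least 100 reads, were CEMIP (r = 0.9996), PTPRM (0.999), TESC (0.998), TM4SF1 (0.998) and NT5E (0.998). CEMIP, which degrades hyaluronan, had 17.0 to 20.8 CPM in control and 4.06 to 5.004 CPM in MTR4 KD. TESC, a calcium-binding protein, had 95.4 to 109.7 CPM and 42.8 to 47.2 CPM. NT5E, the ectonucleotidase that makes adenosine, had 40.7 to 44.8 CPM and 16.6 to 19.97 CPM. IGFBP1 was number 221 in this order, with r = 0.972, and IGFBP4 number 2328, with r = 0.681. The 6 points fall into 2 conditions of 3 libraries, and all of these genes share them.

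Among the genes most like IGFBP2 were PPM1E (r = 0.987), MTRR (0.980), FSD1 (0.977) and TMEM182 (0.976). Each was highest in control replicate 2, but by far less than IGFBP2, with 4.53 CPM against 2.84 to 3.32 CPM for PPM1E. These correlations rest largely on control replicate 2, for which IGFBP2 had been singled out, and are a description only.

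The wider pathway was read from a list of 76 genes around the axis, 62 of which passed the filter on low counts. The list was drawn up with earlier results of these data known, so its counts and p-values are not independent of them. After MTR4 knockdown 3 of them were lower and 0 higher at an adjusted p under 0.05, or 4.84%, beside 3.6% of all tested genes (2.12% lower and 1.48% higher), by edgeR's quasi-likelihood test with Benjamini-Hochberg adjustment. At an unadjusted p under 0.05 the list had 9 genes lower and 7 higher of 62, where 9.84% of all tested genes were lower and 8.93% higher. DESeq2's Wald test called 4 lower and 1 higher, beside 770 lower and 593 higher among all 18075 genes. The calls by limma-voom were 3 and 0, beside 361 and 250. With the kind of library as a covariate, 12 were lower and 8 higher, where all tested genes had 10.8% lower and 9.43% higher. The median log2 difference of the list was -0.018, and that of all tested genes 0.0062.

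Of the 9 listed genes of the IGF2 locus and of IGF2 mRNA regulation, 7 were tested and 1 fell. This was H19 (ENSG00000130600, chr11:1995176-2001266 on GRCh38), an imprinted long noncoding RNA that lies 127.9 kb from IGF2. It had 49.7, 42.2 and 41.3 CPM in control and 14.6, 12.9 and 13.5 CPM in MTR4 KD. The groups did not overlap, and the log2 difference was -1.70 (SE 0.0972, adjusted p = 5.05e-04 by edgeR's quasi-likelihood test). H19 was -1.74 within the libraries with more non-unique reads and -1.61 within those with fewer. IGF2 itself differed by -0.016.

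IGF2BP1, IGF2BP2 and IGF2BP3, which bind IGF2 and other mRNAs, did not pass the test. Their log2 differences were 0.089, -0.090 and 0.10, with adjusted p of 0.710, 0.4725 and 0.673 by edgeR's quasi-likelihood test. IGF2BP1 had 241.8 to 299.6 CPM over the 6 libraries, with the groups overlapping.

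Of the 12 listed proteases of binding proteins and their inhibitors, 7 were tested and 1 fell. STC2, a glycoprotein that inhibits PAPPA, had 83.8, 82.7 and 86.1 CPM in control and 52.2, 51.2 and 50.8 CPM in MTR4 KD. The spread within each group was small beside the gap between them, and the log2 difference was -0.71 (SE 0.0538, adjusted p = 0.00105 by edgeR's quasi-likelihood test). PAPPA itself, the protease of IGFBP4, had 6 to 30 reads in control and 2 to 14 in MTR4 KD, a log2 difference of -0.74 (SE 0.736, adjusted p = 0.644) that turned to 0.048 without control replicate 2.

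Of the 40 listed adaptors and kinases downstream of the receptors, 39 were tested, 1 fell and 0 rose. GRB10, an imprinted adaptor that binds INSR and IGF1R and dampens their signal, had 108.8, 121.9 and 112.7 CPM in control and 85.5, 80.5 and 74.5 CPM in MTR4 KD. The groups did not overlap, and the log2 difference was -0.51 (SE 0.0765, adjusted p = 0.0153 by edgeR's quasi-likelihood test). The adjusted p was over 0.05 without control replicate 1 (0.0588), control replicate 3 (0.0678), MTR4 KD replicate 1 (0.0547) or MTR4 KD replicate 2 (0.0893). The difference stayed between -0.56 and -0.46 over all alternatives.

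IRS1, the adaptor that links both receptors to PI3 kinase, had 140.1, 120.4 and 126.7 CPM in control and 155.3, 165.1 and 158.1 CPM in MTR4 KD. The groups did not overlap, yet its log2 difference of 0.31 (SE 0.0730) did not pass the test, with an adjusted p of 0.0763 by edgeR's quasi-likelihood test. With the kind of library as a covariate it was 0.33, with an adjusted p of 8.89e-04, and over all alternatives the adjusted p ran from 8.89e-04 to 0.299. IRS2, its relative, differed by -0.036 (SE 0.132, adjusted p = 0.913), with overlapping groups.

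Of the 5 other listed ligands and receptors, 2 were tested and 0 passed, and of the 10 listed relatives of the binding proteins and their receptors, 7 were tested and 0 passed, also at an unadjusted p under 0.05. IGF2R, which clears IGF2 from the cell surface, had 376.0, 405.6 and 383.4 CPM in control and 405.4, 400.9 and 325.2 CPM in MTR4 KD, a log2 difference of -0.042 (SE 0.0939, adjusted p = 0.857 by edgeR's quasi-likelihood test). IGFALS, the liver protein that joins IGFBP3 and IGF in blood, was near the floor with 11 to 29 reads per library.

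**Figure D5:**
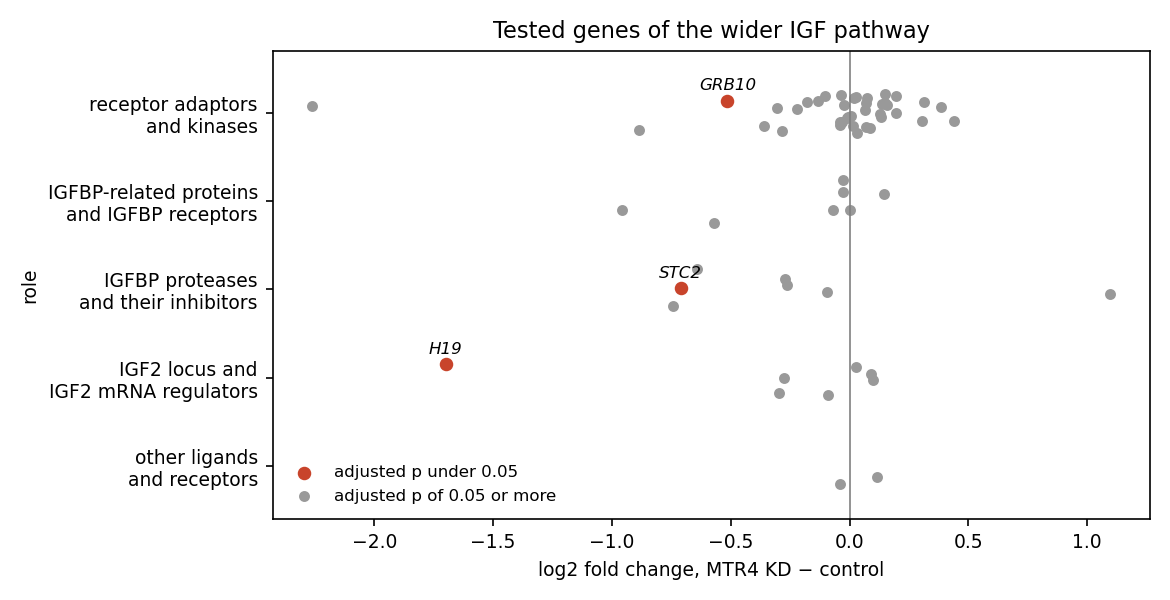
Log2 fold change between MTR4 KD and control for the 62 tested genes of the wider list, grouped by role on the vertical axis with points spread for visibility. Red points have an adjusted p under 0.05, and these are H19, STC2 and GRB10, all left of 0.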

How the data were processed

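RNA-seq counts of 6 PLC/PRF5 libraries were used. The authors deposited raw counts per Ensembl gene with HTSeq's classes of unassigned reads. Per the paper's methods, reads were aligned to GRCh38 with hisat2 2.1.0 and Ensembl annotation, and the submitters' notes name HTSeq and DESeq2. Of all reads, 37.7% to 49.3% were in unassigned classes and were left out of library sizes.

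The 10 genes and all lists were chosen with earlier results of these data known. Genes were kept by edgeR 4.0.16's filterByExpr (minimum 10 counts), which left 18075, scaled by TMM, and tested with the quasi-likelihood test and Benjamini-Hochberg adjustment over all of them, in R 4.3.3 with limma 3.58.1 and DESeq2 1.42.0 for alternatives. CPM used TMM-scaled library sizes. Libraries with over 30% non-unique reads formed one kind. Symbols, exon lengths and overlaps were read from GENCODE models lifted to GRCh37, and positions from RefSeq on GRCh38. Named genes were MTR4, the 10 genes, 13 set pathway genes, up to 4 called per role and direction, the 5 most like IGFBP3 and IGFBP2, and up to 10 genes high in control replicate 2. The procedure was tested on simulated data. Alternatives were size factors, total counts, filters, DESeq2's Wald test, limma-voom, covariates, biotype and each library left out. Some genes that these rules cover are not reported here.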

Additional observations from a re-analysis of the deposited data

How the results depend on the processing

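The IGFBP3 difference lay between -1.41 and -1.29 in all 15 alternatives. With all genes, DESeq2's Wald test called 593 genes higher and 770 lower, and the kind of library as a covariate 1705 and 1944. With 1 library left out, 52 to 300 were called higher and 85 to 503 lower. Of the pathway list, the Wald test called 1 gene higher, the covariate 8 higher and 12 lower, and leaving out a library 0 higher and 2 to 4 lower. Without the condition term, 2949 genes differed between the kinds of library, and with a library left out 4352 to 5066. Genes high in control replicate 2 alone numbered 63 at 3-fold and 8 at 10-fold. With the kind of library as a covariate, IGF2BP1 turned to -0.00038 and IRS2 to 0.077. With 1 library left out, the difference turned sign within the range for IRS2 (-0.15 to 0.055, without MTR4 KD replicate 1, which gave 0.0075, MTR4 KD replicate 2, which gave 0.029, or control replicate 1), IGFALS (-0.21 to 0.64, without MTR4 KD replicate 1, which gave -0.073, or control replicate 2), IGF2R (-0.094 to 0.055, without MTR4 KD replicate 3), PAPPA (-1.21 to 0.048, without control replicate 2) and, between the kinds of library, IGF2 (-0.69 to 1.65, without MTR4 KD replicate 3). The causes were not tested. The deviations of same-numbered libraries correlated at -0.41, 0.50 and 0.53. Over all pairs of a control and an MTR4 KD library, those of the same kind had 0.50 to 0.54 and the others -0.65 to -0.40. The signs thus followed the kind of library, so they cannot show whether the numbers pair the libraries. With the replicate block, 342 genes were higher and 515 lower, 0 and 4 of the list, and IGFBP3 differed by -1.35. Counts of under 50 reads limit IGFBP6 and IGF2 in every library, and IGFBP2 and IGFBP5 in every library but control replicate 2.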
